A study of Mus musculus with 12 samples.

Results

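NADPH oxidase, the enzyme with which phagocytes make superoxide, and the antioxidant defence of cells were followed here as 9 genes. The 5 oxidase genes were *Cybb*, *Cyba*, *Ncf1*, *Ncf4* and *Rac2*, and the 4 antioxidant genes were *Sod2*, *Cat*, *Nfe2l2* and *Prdx1*. They were taken by symbol and matched to the Ensembl identifiers of the count tables, and all 9 of the 54446 genes counted were found and passed the filter on low counts in every comparison. The data were YTHDF2 RIP-seq libraries from CD11b+ myeloid cells that infiltrated MC38 tumors, a transplanted mouse colon carcinoma. YTHDF2 is a protein that binds mRNA carrying N6-methyladenosine (m6A) and is known to promote the decay of such mRNA.

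Control (Ctrl) tumors received a sham treatment, and irradiated (IR) tumors received a single local dose of 20 Gy, with cells collected 3 days later. All mice were WT, which in the methods means *Ythdf2* f/f animals without Cre, so no library lacked YTHDF2, and the methods give mice of both sexes aged 8 to 10 weeks. There were 3 pools per condition, each of cells from 5 mice, and every pool gave an Input library, a measure of transcript abundance, and a library of the RNA recovered with an anti-YTHDF2 antibody (IP). The methods call the pools technical replicates, so the p-values measure only the spread between pools, which may be technical. The 12 libraries had 27852948 to 42382532 reads counted on genes, and reads on no gene made up 24.6 to 27.0% in the Inputs, 41.8 to 42.7% in the Ctrl IPs and 49.4 to 54.1% in the IR IPs. No library from a control antibody was analysed here, so IP over Input holds unspecific recovery of RNA too.

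In a resting phagocyte the oxidase is taken apart. *Cybb* encodes gp91phox, the membrane subunit that carries electrons from NADPH to oxygen, and *Cyba* encodes p22phox, its membrane partner. *Ncf1* (p47phox, the organizer) and *Ncf4* (p40phox, which binds a phosphoinositide of the phagosome membrane) belong to the cytosolic part that moves to the membrane on activation, and *Rac2* encodes the small GTPase of blood cells that completes the active complex. Superoxide within mitochondria is turned into hydrogen peroxide by *Sod2*, their manganese dismutase, and hydrogen peroxide is removed by *Cat* (catalase, in peroxisomes) and *Prdx1* (a peroxiredoxin of the cytosol). *Nfe2l2* encodes NRF2, the transcription factor that switches on many antioxidant genes through antioxidant response elements. Myeloid cells of tumors are known to use reactive oxygen species to suppress T cells.

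The genes lie on 7 chromosomes of mm10, with *Cybb* on chromosome X from 9435252 to 9487771, *Cyba* on chromosome 8 from 122424776 to 122432930 and *Ncf1* on chromosome 5 from 134220053 to 134229625. *Ncf4* (78244801 to 78262580) and *Rac2* (78559167 to 78572783) share chromosome 15. *Sod2* is on chromosome 17 from 13006846 to 13040063, *Prdx1* on chromosome 4 from 116685544 to 116700822, and *Cat* (103453849 to 103485160) and *Nfe2l2* (75675513 to 75704641) are both on chromosome 2. Only *Ncf1* shares exonic bases with another annotated gene, 408 bp with *Gtf2ird2* on the opposite strand (11.1% of its exons). *Gtf2ird2* had 23.0 CPM in the Ctrl Inputs and 44.1 CPM in the Ctrl IPs, far below *Ncf1*. For *Prdx1*, 10.9% of the 50-base stretches of its transcript also occur in transcripts of 3 other annotated genes. The share was 5.65% for *Ncf1*, 1.43% for *Sod2* and 1.34% for *Rac2*. How far such stretches affect the counts was not tested.

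m6A is deposited within a degenerate sequence context known as DRACH, of which GGACT (written here with T) is a frequent form. Only GGACT was searched on the sense strand of the principal coding transcript of each gene, and it is shown for the highest and the lowest genes in Ctrl IP over Input at the site nearest to the end of the coding sequence, where m6A is often found. Each line gives 25 bases, 5′ to 3′, with GGACT in capitals.
*Cybb*: gcattttctgGGACTctctctagga
*Ncf4*: tgaggatgtgGGACTcatggtgaag
*Cat*: ggatctaataGGACTtctgtttgga
*Prdx1*: attttaaaaaGGACTttattttcat

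The *Cybb* stretch lies in the 3′ UTR at chrX:9437949-9437973 on the minus strand, with the motif beginning 254 bases after the coding end. For *Ncf4* it is coding sequence at chr15:78262271-78262295 on the plus strand, 110 bases before that end (-110). The *Cat* stretch (chr2:103454509-103454533, minus strand) and the *Prdx1* stretch (chr4:116699549-116699573, plus strand) are in the 3′ UTR, 233 and 303 bases after it. Whether any of these adenosines is methylated was not measured in these libraries.

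All 9 genes hold the motif, as do 91.9% of 12857 protein-coding genes with both IP tests, so its presence does not set them apart. Per kb of transcript, *Cyba* (2.69), *Nfe2l2* (2.42), *Ncf4* (2.05) and *Ncf1* (1.84) had more than the median gene (1.06). *Cybb* (1.05), *Cat* (1.15), *Prdx1* (1.31) and *Rac2* (1.32) were near it, and *Sod2* had 0.34. *Cybb* has a long transcript of 4752 nt with 5 sites, 4 of them in its 3′ UTR, and *Cyba* a short one of 744 nt with 2 sites. Among the 9 genes the density did not follow the order in IP over Input given next, since *Cyba* had the highest density and *Cybb* a lower one than *Prdx1*. Over the 12857 genes, the Spearman correlation of density with IP over Input was 0.092 in Ctrl and 0.067 in IR. For the number of sites it was 0.25 and 0.335, and for transcript length 0.25 and 0.39.

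Transcript levels were compared between genes as CPM (read counts scaled to a common library total, with TMM over all 12 libraries) per kb of annotated exons. In the Ctrl Inputs the oxidase genes led. *Cyba* had 745 ± 12.5 CPM per kb (SD, n = 3 pools, here and in the values that follow), *Ncf1* 344 ± 3.20, *Cybb* 270.3 ± 6.67, *Rac2* 109 ± 1.62 and *Ncf4* 92.0 ± 0.44. Below them came *Prdx1* (63.8 ± 2.05), *Cat* (31.1 ± 1.68), *Nfe2l2* (29.1 ± 0.30) and *Sod2* (8.82 ± 0.28). Neighbours in this order did not overlap between pools, although *Cat* was above *Nfe2l2* by a factor of only 1.07.

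In the IR Inputs the order was the same except that *Nfe2l2* (35.3 ± 1.54 CPM per kb) stood above *Cat* (32.3 ± 2.36). With the length of the longest transcript in place of all exons, *Ncf4* stood above *Rac2* and *Nfe2l2* above *Cat* in both conditions, so these close neighbours cannot be ranked. In the IPs *Cybb* came first, with 321 ± 5.93 CPM per kb in Ctrl and 299 ± 6.07 in IR, ahead of *Cyba* (268 ± 13.6 and 244 ± 14.3) and *Ncf1* (213 ± 2.86 and 234 ± 8.23). *Cyba* and *Ncf1* overlapped between pools in the IR IPs, as did *Nfe2l2* and *Prdx1*. Per library, the median log2 CPM per kb of the oxidase genes was above that of the antioxidant genes by 3.02 to 3.22 in the 6 Inputs, by 4.99 to 5.31 in the Ctrl IPs and by 4.79 to 4.97 in the IR IPs. With CPM not divided by length it was 2.91 to 3.24 in the Inputs, 3.26 to 3.45 in the Ctrl IPs and 3.06 to 3.24 in the IR IPs. The wider difference in the IPs thus depended on the scaling by length.

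**Figure D1:**
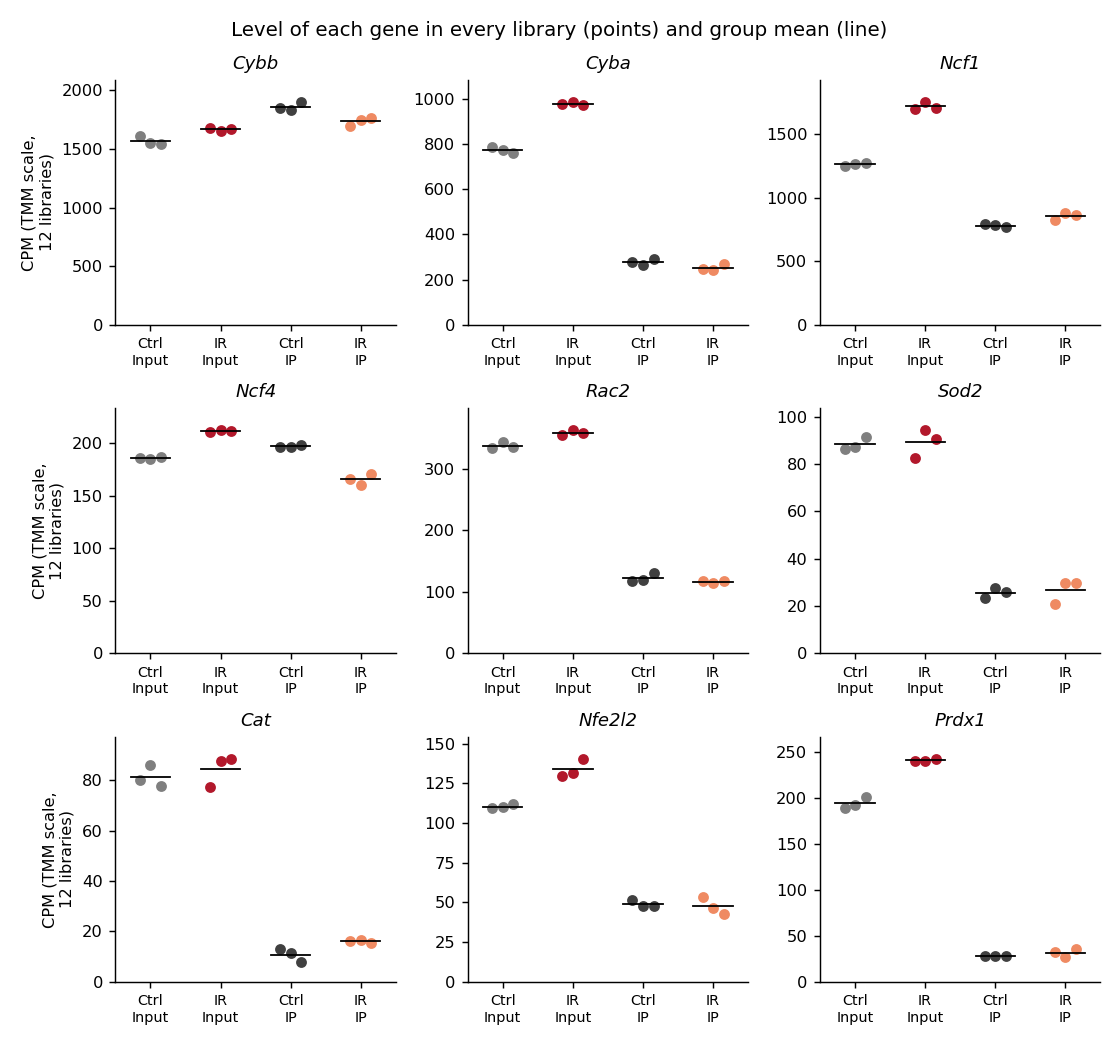
Level of each gene in CPM (vertical axes, each from 0) in the 12 libraries, with a point per pool and a line at the group mean, for Ctrl and IR Inputs and IPs. *Cybb* and *Ncf4* had IP levels close to their Inputs, while *Cat* and *Prdx1* fell to a small part of their Input level in every IP.

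The first comparison asked which of these transcripts were held by YTHDF2, taken as IP over Input within a condition. From here on, CPM are scaled over the 6 libraries of the comparison, as in the test. In Ctrl, 2 of the 9 genes were higher in IP and 7 were lower, where, over all 17416 genes tested, 34.1% passed as higher and 34.6% as lower. In IR, 1 gene was higher and 8 were lower, against 32.1% and 30.4% of 18650 genes. The higher genes were *Cybb* and *Ncf4* in Ctrl and *Cybb* alone in IR. All 4 antioxidant genes were lower in IP in both conditions.

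*Cybb* had 1551, 1482 and 1465 CPM in the 3 Ctrl Inputs and 1859.5, 1855 and 1908 CPM in the Ctrl IPs. The IPs lay above the Inputs without overlap, by 0.32 on the log2 scale (standard error 0.032, adjusted p = 8.5e-08). After IR it had 1683, 1657 and 1675 CPM in the Inputs and 1768, 1812 and 1837 CPM in the IPs, a log2 fold change of 0.11 (standard error 0.030, adjusted p = 0.00703). This was close to the median of all genes tested in IR (0.10), and the call was lost with no filter on low counts (-0.026) and with the 12 libraries fitted together (0.058). *Cybb* stood at the 59.6th percentile of all tested genes in Ctrl and at the 50.3rd in IR.

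*Ncf4* had 179, 176 and 177 CPM in the Ctrl Inputs and 197, 199 and 199 CPM in the Ctrl IPs, with a log2 fold change of 0.16 (standard error 0.041, adjusted p = 0.00238). In IR it had 211, 212 and 212 CPM in the Inputs and 173, 166 and 178 CPM in the IPs, with a log2 fold change of -0.30 (standard error 0.049, adjusted p = 3.15e-04). Input and IP did not overlap in either condition, and their order was opposite. The call in Ctrl was lost with no filter (0.045), with the 12 libraries fitted together (0.084) and with scaling by library size only, which gave -0.025. That scaling moved the median of all genes to -0.16 in Ctrl and 0.25 in IR, and relative to the median *Ncf4* was at 0.14 in Ctrl and -0.40 in IR under both scalings, and *Cybb* at 0.30 and 0.01. Such distances from the median are kept by construction, as rescaling shifts all genes nearly alike.

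*Cyba*, whose protein is needed for the gp91phox subunit to be stable, was lower in IP, opposite to *Cybb*. It had 756, 738 and 723 CPM in the Ctrl Inputs against 281, 267 and 293 CPM in the Ctrl IPs, and 979.5, 985 and 974 CPM against 257, 252 and 281 CPM in IR. Every IP was far below every Input, 2.64-fold in Ctrl (log2 fold change -1.40, standard error 0.041, adjusted p = 3.95e-15) and 3.72-fold in IR (-1.90, standard error 0.047, adjusted p = 1.09e-10). *Rac2* was similar, with a log2 fold change of -1.39 in Ctrl (standard error 0.048) and -1.57 in IR (standard error 0.046). *Ncf1* fell between these pairs, with 1201, 1202 and 1209.9 CPM in the Ctrl Inputs and 792, 790.3 and 770.5 CPM in the Ctrl IPs, a log2 fold change of -0.62 (standard error 0.032, adjusted p = 9.94e-12), and -0.95 in IR (standard error 0.035, adjusted p = 1.9e-09).

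*Prdx1* and *Cat* were among the lowest genes of the whole table. *Prdx1* had 182, 183 and 191 CPM in the Ctrl Inputs and 28.2, 27.8 and 28.4 CPM in the Ctrl IPs, 6.59-fold lower (log2 fold change -2.72, standard error 0.054, adjusted p = 2.41e-17). In IR its Inputs had 241, 240.0 and 243 CPM and its IPs 34.0, 27.95 and 36.6 CPM, 7.35-fold lower (-2.88, standard error 0.091). In both conditions the IP pools lay far apart from the Inputs, and 2.08% of tested genes in Ctrl and 1.48% in IR had a lower IP over Input than *Prdx1*.

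*Cat* had 76.9, 82.2 and 73.8 CPM in the Ctrl Inputs and 13.0, 11.6 and 7.93 CPM in the Ctrl IPs, 7.12-fold lower (log2 fold change -2.83, standard error 0.12, adjusted p = 8.29e-13). In IR it had 77.7, 87.7 and 88.7 CPM in the Inputs and 16.7, 17.1 and 16.2 CPM in the IPs, 5.08-fold lower (-2.34, standard error 0.090). *Sod2* was lower in IP by a similar amount in both conditions, with log2 fold changes of -1.71 (standard error 0.074) and -1.68 (standard error 0.13). *Nfe2l2*, the regulator among the antioxidant genes, was the least reduced of them in Ctrl, with 105, 105 and 106 CPM in the Ctrl Inputs and 52.0, 48.5 and 48.1 CPM in the Ctrl IPs. Its log2 fold change was -1.09 in Ctrl (standard error 0.057, adjusted p = 1.27e-11) and -1.44 in IR (standard error 0.086, adjusted p = 8.61e-08), where its pools overlapped those of *Sod2*. In all 3 pools of both conditions the IP of each of *Cyba*, *Ncf1*, *Rac2* and the 4 antioxidant genes was below the Input of the same number.

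Per pool, the median log2 IP over Input of the 5 oxidase genes was -0.60, -0.61 and -0.65 in Ctrl and -0.99, -0.94 and -0.93 in IR. That of the 4 antioxidant genes was -2.20, -2.14 and -2.25 in Ctrl and -2.08, -1.98 and -2.06 in IR, while all tested genes had medians from -0.025 to 0.036. The oxidase median was thus above the antioxidant median by 1.54 to 1.60 in the Ctrl pools and by 1.04 to 1.13 in the IR pools. In every pool the oxidase median was the value of *Ncf1* alone, and single genes of the groups overlapped. By the fitted values *Cyba* (-1.40) and *Rac2* (-1.39) were below *Nfe2l2* (-1.09) in Ctrl, and *Cyba* (-1.90) was below *Nfe2l2* (-1.44) in IR. These medians describe the chosen genes and were not tested.

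**Figure D2:**
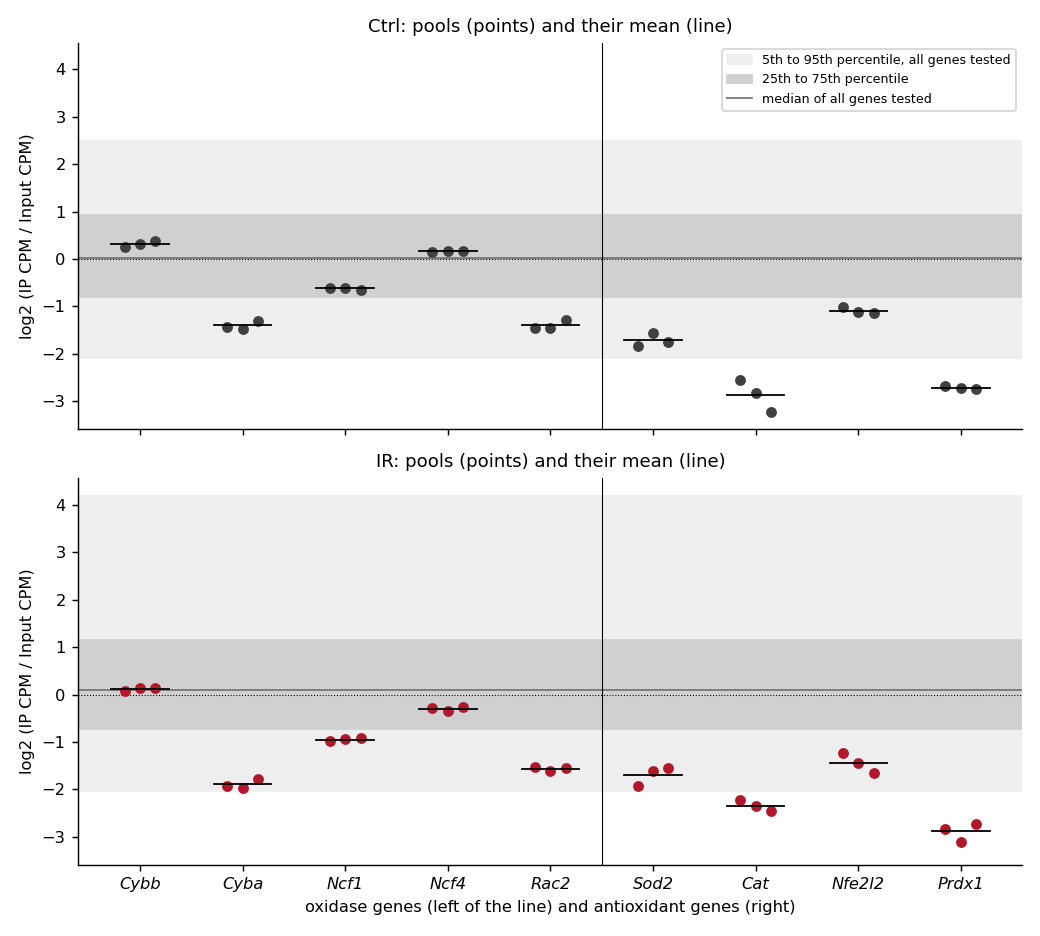
Log2 of IP over Input CPM (vertical axis) for the 9 genes, with a point per pool and a line at the mean, in Ctrl (upper panel) and IR (lower panel). The grey bands hold the 25th to 75th and the 5th to 95th percentile of all tested genes, and *Cat* and *Prdx1* lie below the wider band in both panels while *Cybb*, *Ncf1* and *Ncf4* in Ctrl lie inside the narrower one.

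Whether IP over Input itself differed between IR and Ctrl was tested by the interaction term of a fit to the 12 libraries and 20720 genes. *Cyba* (-0.47, standard error 0.062, adjusted p = 1.18e-05), *Ncf4* (-0.44, standard error 0.061, adjusted p = 2.55e-05), *Ncf1* (-0.31, standard error 0.045, adjusted p = 3.53e-05) and *Cybb* (-0.19, standard error 0.040, adjusted p = 0.00179) were lower in IR on the log2 scale. *Nfe2l2* was lower too (-0.33, standard error 0.10, adjusted p = 0.0275), and *Cat* was higher (0.51, standard error 0.17, adjusted p = 0.0361). This made 5 genes lower and 1 higher of 9, where 13.9% of all tested genes were lower and 6.28% higher. *Rac2* (-0.15, adjusted p = 0.121), *Prdx1* (-0.14, adjusted p = 0.412) and *Sod2* (0.056, adjusted p = 0.862) did not pass, with approximate 95% intervals of -0.28 to -0.022, -0.34 to 0.064 and -0.25 to 0.36.

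These differences depended on how the libraries were scaled. With library size only, the median of all genes moved from -0.083 to 0.23, and no gene of the 9 was then lower, while *Cybb* (0.12) and *Cat* (0.82) passed as higher. *Cyba* stayed negative at -0.16 and *Ncf4* at -0.12, *Nfe2l2* had -0.017 and *Ncf1* 0.0018. Among all genes, the share of calls that were higher went from 31.1% to 76.5%. Rescaling shifts all genes nearly alike, so distances from the median of all genes are kept by construction and add no support to the calls. Relative to that median *Cyba* was lower by -0.39 under both scalings, *Ncf4* by -0.35, *Nfe2l2* by -0.25 and -0.24, *Ncf1* by -0.23, and *Cybb* by -0.11 and -0.10, while *Cat* was above it by 0.60 under both.

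With replicate 2 or replicate 3 left out, *Cybb* (-0.17 and -0.15), *Nfe2l2* (-0.31 and -0.22) and *Cat* (0.55 and 0.45) kept their sign without passing the threshold. *Cybb* did not pass with protein-coding genes only (-0.11) either, nor *Nfe2l2* with protein-coding genes only (-0.25), with DESeq2 (-0.27) or with the size factors of DESeq2 (-0.27). *Cyba*, *Ncf1* and *Ncf4* passed with each replicate left out in turn.

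**Figure D3:**
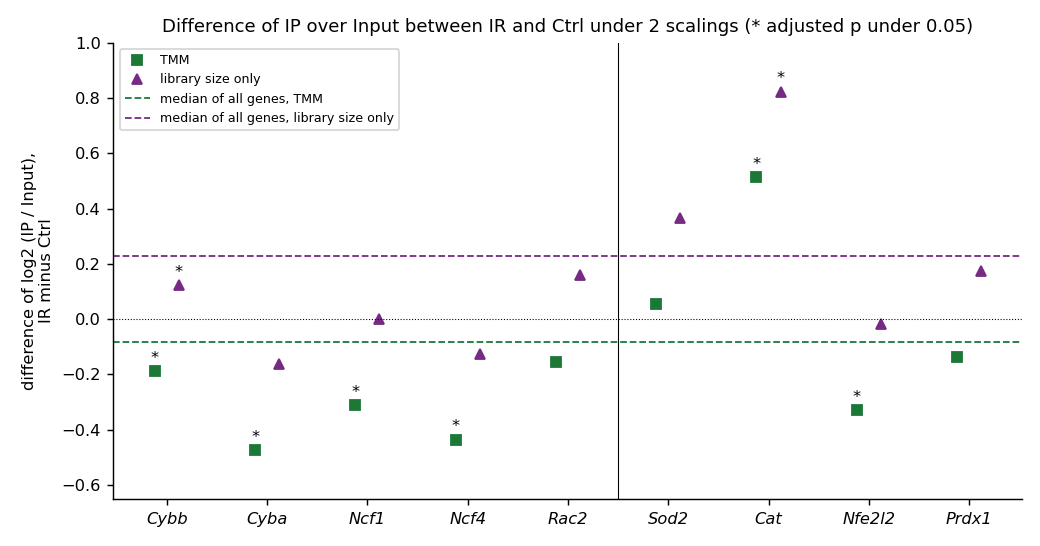
Difference of log2 IP over Input, IR minus Ctrl (vertical axis), for the 9 genes with TMM (squares) and with library size only (triangles), and the median of all genes under each scaling (dashed lines). Rescaling shifts all genes nearly alike, so each gene keeps its distance from the median by construction. The zero line changes its place among the genes, so that *Cybb* is at -0.19 with TMM and at 0.12 without it.

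The next comparison asked how irradiation changed the abundance of these transcripts, from the Inputs alone. Of the 9 genes, 5 were higher in IR and none was lower, where 21.0% of 16914 tested genes were higher and 23.9% lower (46.8% of calls higher, and 63.6% with the 12 libraries fitted together, which moved the median of all genes from 0.0072 to 0.097). The 5 were the oxidase genes *Ncf1*, *Cyba* and *Ncf4* and the antioxidant genes *Prdx1* and *Nfe2l2*, with increases of 1.08- to 1.29-fold. In bulk samples, more cells of a type and more RNA per cell cannot be told apart.

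*Ncf1* had 1273, 1273 and 1281 CPM in the Ctrl Inputs and 1626, 1677 and 1633 CPM in the IR Inputs, a log2 fold change of 0.37 (standard error 0.025, adjusted p = 3.14e-12). *Cyba* went from 801, 782 and 766 CPM to 935, 943 and 929 CPM, a log2 fold change of 0.26 (standard error 0.027, adjusted p = 1.41e-08). For both genes every IR pool lay above every Ctrl pool by more than the spread within a group. *Prdx1* had 193, 194 and 203 CPM in Ctrl and 230.1, 229.7 and 232 CPM in IR (log2 fold change 0.23, standard error 0.033, adjusted p = 2.22e-06). *Nfe2l2* had 112, 111 and 112 CPM in Ctrl and 124, 126 and 134 CPM in IR (0.20, standard error 0.039, adjusted p = 1.29e-04). *Ncf4* rose least, from 189.6, 187 and 188 CPM to 202, 203 and 202 CPM (0.11, standard error 0.033, adjusted p = 0.00969), and its call was lost without replicate 2 (0.096) and without replicate 3 (0.10).

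The other 4 genes did not pass. *Cybb* had 1644, 1569 and 1552 CPM in the Ctrl Inputs and 1607, 1586 and 1598 CPM in the IR Inputs, and the pools overlapped. Its log2 fold change was 0.0081, with an approximate 95% interval of -0.043 to 0.060. *Rac2* had 0.0064 (-0.053 to 0.066), *Cat* -0.023 (-0.12 to 0.075) and *Sod2* -0.066 (-0.16 to 0.024). The membrane subunit *Cybb* and its partner *Cyba* thus had different values in IR, 0.0081 against 0.26, although the difference between these genes was not tested. With the 12 libraries fitted together, *Cybb* passed the threshold at 0.087, below the median of all genes in that fit.

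Markers of myeloid cell types also differed between the Inputs. The summed level of 10 neutrophil markers was 10892 to 11482 CPM in the Ctrl Inputs and 13207 to 13704 CPM in the IR Inputs, and 7 of them were higher in IR and none lower. *Ly6g*, a defining neutrophil marker, was low in both (10.3 and 11.8 CPM on the 12-library scale) and did not pass (adjusted p = 0.43). *Itgam*, which encodes CD11b itself, was higher by 0.79 on the log2 scale (adjusted p = 6.21e-19). The 8 general myeloid markers, *Itgam* among them, together went from 5452 to 5473 CPM in Ctrl to 6265 to 6357 CPM in IR. Of these 8, 5 were higher and 1 lower (*Csf1r*, -0.12), while *Lyz2* (-0.011) and *Itgb2* (-0.022) did not pass. Much of the rise in the sum was *Itgam*, which went from 944 to 1719 CPM on the 12-library scale. Of 6 monocyte markers 3 were higher and 3 lower, and of 8 macrophage markers 5 were higher and 3 lower. The part of these changes in the result for the oxidase genes was not tested. All 5 NK cell and 4 erythroid markers were under 1 CPM in the Inputs, as were 5 of 7 T cell markers, with *Cd3e* at 0.025 CPM in the Ctrl Inputs. Epithelial markers summed to 120.6 to 129.7 CPM in Ctrl and 87.2 to 92.8 CPM in IR, nearly all of it *Cdh1*, and *Krt19* was at 0.

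NRF2 binds antioxidant response elements with the core TGACNNNGC, where N is any base. RefSeq promoters (GRCm38.p6, 250 bases before to 50 after the gene start) matched 7 of the 9 genes, namely all but *Ncf4* and *Rac2*, and the core was searched on both strands. It was found once in each of the *Nfe2l2* and *Prdx1* promoters and not in those of *Cybb*, *Cyba*, *Ncf1*, *Sod2* and *Cat*. Of the genes that were higher in the IR Inputs, *Nfe2l2* and *Prdx1* thus hold it, *Ncf1* and *Cyba* do not, and *Ncf4* had no promoter to search. Of 32851 promoters of this length 12.4% hold it. A link between the core and the change after IR was not tested. The sequences are shown 5′ to 3′ on the strand that carries the core, which is in capitals.
*Nfe2l2*: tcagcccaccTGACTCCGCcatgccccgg
*Prdx1*: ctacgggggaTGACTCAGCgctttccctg

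The *Nfe2l2* stretch lies at chr2:75704885-75704913 on the minus strand, the strand of the gene, and the *Prdx1* stretch at chr4:116685456-116685484 on the minus strand, opposite to the gene. A match of letters is a description, and binding of NRF2 was not measured.

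In the IP libraries compared on their own, few of these genes differed between IR and Ctrl. *Ncf1* was higher in IR and *Ncf4* lower, 1 gene each of 9, where 6.12% of 19255 tested genes were higher and 9.85% lower. *Ncf1* had 799, 794 and 776 CPM in the Ctrl IPs and 839.7, 899.9 and 881 CPM in the IR IPs (log2 fold change 0.15, standard error 0.042, adjusted p = 0.027). *Ncf4* had 199, 199.6 and 199.96 CPM in Ctrl and 169, 163 and 174 CPM in IR (-0.24, standard error 0.060, adjusted p = 0.0112). The pools of both genes did not overlap between conditions.

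*Cat* had 13.1, 11.6 and 7.98 CPM in the Ctrl IPs and 16.4, 16.9 and 15.8 CPM in the IR IPs. Its pools did not overlap either, yet its log2 fold change of 0.58 (standard error 0.20, adjusted p = 0.0624) did not pass. It passed with DESeq2 (0.59), with no filter (0.55), with protein-coding genes only (0.61), with the replicate block (0.61) and with the 12 libraries fitted together (0.57). *Cybb* had 1877, 1864 and 1920.4 CPM in Ctrl and 1731, 1783 and 1797 CPM in IR without overlap, and a log2 fold change of -0.093 (standard error 0.033, adjusted p = 0.0741), which passed with the replicate block (-0.093) and with the 12 libraries fitted together (-0.10), as did *Cyba* with the latter (-0.14). The remaining 5 genes overlapped between conditions, from *Cyba* (-0.13, adjusted p = 0.179) to *Prdx1* (0.18, adjusted p = 0.398).

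With library size only, *Ncf4* had -0.036 and did not pass, and *Cybb* (0.11), *Ncf1* (0.35) and *Cat* (0.78) were higher, as the median of all genes moved from 0.062 to 0.27. Among all genes the share of calls that were higher was then 76.3%, against 38.3% with TMM. The call of *Ncf1* was lost with no filter (0.11), without replicate 2 (0.15) and without replicate 3 (0.14), and that of *Ncf4* without replicate 1 (-0.22) and without replicate 2 (-0.20).

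**Figure D4:**
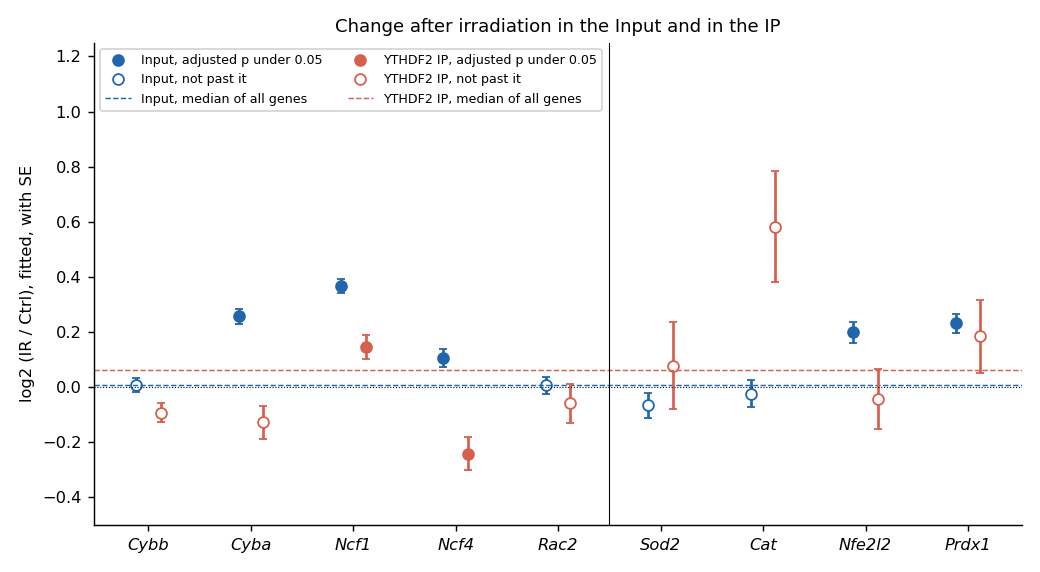
Fitted log2 fold change of IR over Ctrl with its standard error (vertical axis) for the 9 genes in the Input (blue) and in the IP (red), filled where the adjusted p was under 0.05, with dashed lines at the medians of all genes. *Ncf1*, *Cyba*, *Ncf4*, *Prdx1* and *Nfe2l2* lie above 0 in the Input, whereas in the IP *Ncf1* lies above and *Ncf4* below 0 with filled points.

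The 9 genes were set beside 67 other redox genes in 7 lists, of which 61 or 62 passed the filter. In Ctrl, 9 of 61 were higher in IP and 45 lower, with a median log2 fold change of -0.99, and in IR 10 of 61 were higher and 43 lower, with a median of -1.06. Over all genes, 34.1% were higher and 34.6% lower in Ctrl, and 32.1% and 30.4% in IR. The 9 genes had medians of -1.39 and -1.57, and all tested genes 0.018 and 0.10.

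Other parts and activators of the oxidase differed widely among themselves. *Cybc1*, which encodes the chaperone that the gp91phox and p22phox subunits need to mature, had the highest IP over Input of all the redox genes that met the rule for naming, 2.01 in Ctrl (standard error 0.043) and 1.38 in IR (standard error 0.046), and its IP over Input was lower in IR by -0.61 (adjusted p = 3.13e-07). *Vav1*, an exchange factor for Rac GTPases, had -0.61 in the same test (adjusted p = 6.13e-07). Of the 10 genes in this list, 2 were higher and 7 lower in IP in Ctrl, with a median of -0.41. *Pla2g4a*, a phospholipase, was lower in the IR Inputs (-0.38, adjusted p = 0.0063). Of the other NADPH oxidases and their regulators, 5 of 6 listed genes (*Nox1*, *Nox4*, *Noxa1*, *Duox1* and *Duox2*) failed the filter in the Inputs and averaged under 1 CPM in every group on the 12-library scale.

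Of 7 other dismutases and peroxiredoxins, 6 were lower in IP in both conditions and none was higher, with medians of -1.87 in Ctrl and -2.12 in IR. The exception was *Sod3*, the extracellular dismutase, with -0.15 in Ctrl (standard error 0.25) and -0.059 in IR (standard error 0.51), named here after its values were seen. Its count was small, with 2.95 CPM in the Ctrl IPs and 2.76 CPM in the IR IPs on the 12-library scale. In the thioredoxin system 9 of 11 were lower in both, and *Txn1*, thioredoxin itself, had -3.18 in IR (standard error 0.088). In the glutathione system 10 of 13 were lower in both, and the microsomal transferases *Mgst3* (-3.55) and *Mgst1* (-3.27) were the lowest named genes in Ctrl. The count of *Mgst3* was small, with 0.564 CPM in the Ctrl IPs on the 12-library scale. All 6 enzymes of NADPH supply were lower in IP in Ctrl (median -1.29) and 5 of 6 in IR.

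The regulators around NRF2 were mixed. *Nfe2l1*, a relative of *Nfe2l2*, was higher in IP by 1.42 in Ctrl and 0.89 in IR, opposite to *Nfe2l2* at -1.09 and -1.44. Of the 13 genes of this list 4 were higher and 7 lower in Ctrl, and 5 and 8 in IR. *Bach1*, a repressor that competes with NRF2 for its elements, was lower in the IR Inputs by -0.54 (adjusted p = 5.37e-10), and its IP over Input was higher in IR by 0.75 (adjusted p = 3.31e-05), against -0.33 for *Nfe2l2*. *Gclc*, the catalytic subunit of glutamate-cysteine ligase, was higher in the same test by 0.68 (adjusted p = 0.0277).

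In the Inputs, 25 of the 61 other redox genes were higher in IR and 8 lower (21.0% and 23.9% of all genes tested), with *Gss* (0.56, adjusted p = 1.03e-06) and *Idh1* (0.52, adjusted p = 5.32e-11) the highest by the rule for naming. *Gss* encodes glutathione synthetase and *Idh1* a cytosolic enzyme that makes NADPH. In the IP, 6 of 62 were higher and 8 lower, where all genes had 6.12% and 9.85%, among them *Idh1* (0.73) and *Gclm* (0.66), and *Vav1* (-0.55) and *Cybc1* (-0.44). In the interaction, 6 of 62 were higher and 16 lower (6.28% and 13.9% of all genes), with a median of -0.14 against -0.083 for all genes.

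**Figure D5:**
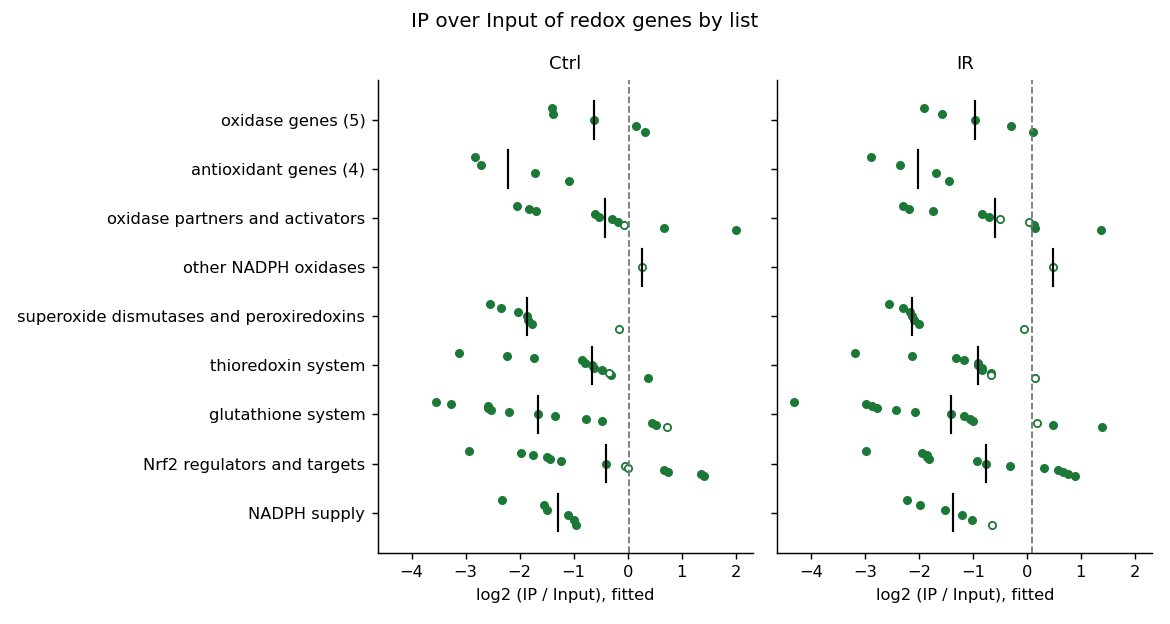
Fitted log2 IP over Input (horizontal axes) of the 5 oxidase genes, the 4 antioxidant genes and the 7 lists of other redox genes in Ctrl (left) and IR (right), with a point per gene, filled where the adjusted p was under 0.05, black bars at list medians and a dashed line at the median of all genes. The antioxidant genes and the dismutases and peroxiredoxins lie to the left of the dashed line in both panels, and *Cybc1* is the point farthest to the right among the oxidase partners.

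The gene whose log2 CPM over the 12 libraries was most like that of each of the 9, among 10566 other protein-coding genes with at least 100 counts per library on average, was named as a description. The libraries fall into 4 groups of 3, so the measure mainly reflects the steps between those groups. It was *Trim12a* for *Cybb* (Pearson r 0.99), *Tmsb4x* for *Cyba* (0.998), *Rpl17* for *Ncf1* (0.998), *Mpnd* for *Ncf4* (0.97) and *Vdac2* for *Rac2* (0.999). It was *Sh2b3* for *Sod2* (0.998), *Mtmr6* for *Cat* (0.997), *Ccl5* for *Nfe2l2* (0.999) and *Rab7* for *Prdx1* (0.999). No gene of the 9 was the closest match of another. *Cybb* stood apart most, as its nearest among the other 8 was *Ncf4* at rank 4082 (0.014), while *Rac2* was the 83rd closest gene to *Prdx1* (0.995).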

How the data were processed

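Trimmed reads (Trimmomatic 0.39) were aligned by the authors with HISAT to mm10 (GENCODE M19) and counted per gene with HTSeq, and the deposited values are these whole-number counts, not normalized. The strand option of the counting and the handling of reads with several alignments are not given in the sources used here. The methods name a total RNA kit, the labels mRNA, and their antibodies differ.

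Samples were grouped by their titles. Counts were scaled with TMM, and edgeR 4.0.16 (R 4.3.3) fitted its quasi-likelihood model to genes that reached 10 counts in 3 or more of the libraries compared. P-values were adjusted over all genes tested (Benjamini-Hochberg, threshold 0.05). By the methods Input and IP are parts of 1 lysate, yet same-numbered libraries showed no shared deviation (correlations across genes -0.019 to 0.015), and the pool as a block was an alternative. Steps were tested on simulated data in which 200 genes were changed 3-fold, in equal numbers up and down. That setting holds no shift shared by most genes and no change smaller than 3-fold, so it cannot test the calls against these. TMM sets the typical gene to no change, so a shift shared by most genes cannot be seen. Standard errors and the approximate 95% intervals made from them cover the spread between pools.

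The 9 genes and all lists were chosen with earlier results of these data known. Named were the 9 genes; of the other redox genes, per comparison and direction, the 2 with the largest absolute log2 fold change among those past the threshold, in the same direction in every pool and averaging 100 counts or more in a library; and the gene most like each of the 9. Names came from GENCODE M21, which matched 99.9% of identifiers. Alternatives were other scalings, DESeq2 1.42.0, no filter, 1 fit of 12 libraries, protein-coding genes only, the block, thinning, and each replicate left out.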

Additional observations from a re-analysis of the deposited data

Results flagged for a closer look

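IP over Input differed between IR and Ctrl, by the interaction test of edgeR with Benjamini-Hochberg adjustment, for 6 of the 9 genes. Of all 20720 genes tested, 13.9% were lower in IR and 6.28% higher. With TMM the log2 difference was -0.47 for *Cyba*, -0.44 for *Ncf4*, -0.31 for *Ncf1*, -0.19 for *Cybb*, -0.33 for *Nfe2l2* and 0.51 for *Cat*. With library size only, 0 of the 9 genes were lower and 2 were higher. *Ncf4* was higher in IP than in Input in all 3 Ctrl pools (0.16) and lower in all 3 IR pools (-0.30). *Cybb* and *Cyba*, whose proteins form the membrane core of the oxidase, had an IP over Input of 0.32 and -1.40 in Ctrl. The share of reads on no gene was 41.8 to 42.7% in the Ctrl IPs and 49.4 to 54.1% in the IR IPs, and its part in these differences was not tested.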

How the results depend on the processing

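Over 11 alternatives (10 for the interaction), direction and side of the threshold were kept in 96 of 99 values for IP over Input in Ctrl, 97 of 99 in IR, 72 of 90 for the interaction, 89 of 99 for the Input and 79 of 99 for the IP. The cause of the changes was not tested. Of the 9 genes, 1 was higher in the Ctrl IP with library size only, with no filter and with all 12 libraries in one fit, and 0 were higher in the IR IP with the last pair.

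With library size only, the interaction had 2862 genes higher and 877 lower (2 and 0 of the 9), and IR against Ctrl in the IP 2665 and 828 (3 and 0 of the 9). With protein-coding genes only, 3 of the 9 were lower in the interaction and 2 higher in the IP. One fit of 12 libraries gave 1500 genes lower in the Input, and 2125 higher and 2952 lower in the IP (2 and 3 of the 9). DESeq2 gave 2 of the 9 higher in the IP. The replicate block gave 2 higher and 2 lower there, with numbers that do not pair Ctrl and IR, and the pairing of IP with Input as a block changed no call of the 9.

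With a replicate left out in turn, the ranges were 3979 to 4153 genes higher in IP over Input in IR, 838 to 1012 higher and 1786 to 2046 lower in the interaction (0 to 1 and 3 to 5 of the 9), and 564 to 748 higher and 1097 to 1348 lower in the IP (0 to 1 and 0 to 1 of the 9). Replicates 2 and 3 held the lost interaction calls.

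Signs reversed with library size only for *Ncf4* in the Ctrl IP over Input (-0.025), for *Cybb* (0.12), *Ncf1* (0.0018), *Rac2* (0.16) and *Prdx1* (0.18) in the interaction, for *Cybb* (-0.010) and *Rac2* (-0.012) in the Input, and for *Cybb* (0.11), *Cyba* (0.078), *Rac2* (0.15) and *Nfe2l2* (0.16) in the IP. They reversed with no filter for *Cybb* in IR (-0.026), with all 12 libraries for *Sod2* (0.013) and *Cat* (0.055) in the Input, and when a replicate was left out for *Sod2* in the interaction (-0.011 to 0.14), *Cybb* (-0.011 to 0.026), *Rac2* (-0.0021 to 0.0073) and *Cat* (-0.095 to 0.027) in the Input and *Nfe2l2* in the IP (-0.072 to 0.024).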
